A study of Homo sapiens with 34 samples.

Results

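The genes described are 10 inhibitors and feedback genes of the transcription factor NF-κB, out of 23368 gene symbols counted in each library: NFKBIA, NFKBIB, NFKBIE, NFKBIZ, BCL3, TNFAIP3, TNIP1, BIRC3, TRAF1 and TNFAIP2. They were chosen by name, and all 10 had a row in every count file. The RNA came from cultures of 6 human leukemia and lymphoma lines, either without treatment (control) or with 10 µM etoposide for 4 hours, and no vehicle is named for the controls. NALM6 and 697 are pre-B acute lymphoblastic leukemia lines, RAMOS is a Burkitt's lymphoma line of mature B cells, JURKAT is an acute T cell leukemia line, THP1 is an acute monocytic leukemia line and U937 is labelled histiocytic leukemia. Each group held 3 libraries, except 697 etoposide and U937 control with 2 each. All 6 are established lines, and where the replicates came from is not stated, so p-values measure only the spread between these libraries, which may be technical.

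Etoposide traps topoisomerase II on cut DNA and leaves double-strand breaks. In resting cells NF-κB dimers are held in the cytoplasm by IκB proteins. DNA breaks signal through the kinase ATM to the IκB kinase complex, which marks IκB for destruction and frees NF-κB to enter the nucleus. Freed NF-κB then switches on genes that shut it off again, among them the gene of IκBα itself and that of the ubiquitin-editing enzyme A20, so the RNA of these inhibitors is a common readout of NF-κB activity.

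The promoters are shown because the RNA of these genes moved together in several lines, and because NF-κB binds a short recurring sequence, the κB site. RefSeq promoter windows on GRCh38.p14 were matched by symbol for 9 of the 10 genes, 14 windows in all, and NFKBIE was not matched. The 250 bases before each start were searched on both strands for the κB consensus, a motif of 10 letters, where overlapping matches on opposite strands count as 1 site. The consensus lay in 7 of the 14 windows, against 9.96% of 35116 windows of all genes. It lay in 6 of the 9 genes, some of which had more than 1 window, and no share over genes was computed. The genes were chosen by name as NF-κB genes, so no conclusion is drawn from the gap. The 5 windows printed were picked from those with matches. They run 5′ to 3′ on the strand of the gene, and capitals mark the κB consensus on either strand.
NFKBIA, chr14:35404750-35404999, minus strand: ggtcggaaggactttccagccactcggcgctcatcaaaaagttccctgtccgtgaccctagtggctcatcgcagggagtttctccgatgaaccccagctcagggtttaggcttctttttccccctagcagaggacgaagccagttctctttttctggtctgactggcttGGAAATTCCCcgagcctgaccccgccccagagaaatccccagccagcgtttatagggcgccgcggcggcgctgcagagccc
NFKBIZ, chr3:101827740-101827989, plus strand: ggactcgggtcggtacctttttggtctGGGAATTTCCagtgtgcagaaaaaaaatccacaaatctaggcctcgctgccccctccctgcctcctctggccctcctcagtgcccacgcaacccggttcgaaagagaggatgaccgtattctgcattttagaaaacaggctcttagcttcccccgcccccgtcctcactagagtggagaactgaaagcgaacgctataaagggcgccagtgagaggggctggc
TNFAIP3, chr6:137867009-137867258, plus strand: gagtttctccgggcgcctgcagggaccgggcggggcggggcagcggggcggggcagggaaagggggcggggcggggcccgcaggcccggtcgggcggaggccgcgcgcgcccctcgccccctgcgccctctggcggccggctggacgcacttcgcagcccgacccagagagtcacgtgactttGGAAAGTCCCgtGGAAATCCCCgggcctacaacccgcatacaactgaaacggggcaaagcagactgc
TNIP1, chr5:151081035-151081284, minus strand: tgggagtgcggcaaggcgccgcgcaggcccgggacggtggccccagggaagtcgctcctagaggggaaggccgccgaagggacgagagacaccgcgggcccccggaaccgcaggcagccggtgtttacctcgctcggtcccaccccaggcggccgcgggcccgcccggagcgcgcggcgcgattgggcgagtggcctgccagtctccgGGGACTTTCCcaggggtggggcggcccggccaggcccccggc
BIRC3, chr11:102317234-102317483, plus strand: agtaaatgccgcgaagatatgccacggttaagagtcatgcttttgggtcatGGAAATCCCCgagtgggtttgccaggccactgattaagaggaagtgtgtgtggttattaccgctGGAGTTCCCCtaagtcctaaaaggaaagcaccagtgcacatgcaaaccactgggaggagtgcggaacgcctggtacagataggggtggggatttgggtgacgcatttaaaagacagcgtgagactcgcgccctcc
NFKBIA had 1 match, from 81 to 72 bases before its start. TNFAIP3 had a pair of matches, from 67 to 58 and from 55 to 46 bases before its start, and BIRC3 had a pair farther out, from 199 to 190 and from 135 to 126. Of 2 windows of NFKBIB, 1 held the site GGGAATTTCC, which also stands in the printed NFKBIZ window. TNIP1 also had 2 windows, and the one not printed held no match. No listed window of BCL3, TRAF1 or TNFAIP2 held the consensus. A match describes the letters only, and binding was not measured.

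Total counts ran from 8.18 to 37.1 M reads per library. In controls, pre-B, B cell, T cell and myeloid markers each had their highest sums in the lines labelled for them. Summed pre-B markers were 3456 to 3736 CPM (read counts scaled to 1 M reads per library) in NALM6 and 4149 to 4274 in 697. B cell markers were 2413 to 2636 in RAMOS and T cell markers 1832 to 1989 in JURKAT. Myeloid markers were 2721 to 2935 in THP1 and 4479 to 4537 in U937. Outside those lines the highest control sum of pre-B markers was 991 to 1079 CPM, in RAMOS. That of B cell markers was 1050 to 1241, in NALM6. For T cell and myeloid markers it was 128 to 152 and 55.7 to 65.0 CPM, both in RAMOS. After etoposide the pre-B sums were 1334 to 1450.5 in NALM6 and 1479 to 1525 in 697 and the B cell sum was 1635 to 1669 in RAMOS, and the part of these lower marker levels in the results was not tested. The file names carry 4 run codes. In NALM6 and 697 all controls had 1 code and all etoposide libraries another, so run and treatment cannot be told apart in these lines, whereas each of the 4 other lines lay within 1 run. Genes with a count numbered 13917 to 14978 in NALM6 controls and 15908 to 16132 in its etoposide libraries, and 14355 to 14738 against 16408 to 17097 in 697. The part of this gap in the rises from near 0 described for these lines was not tested. In bulk RNA, more RNA per cell and more cells that make it cannot be told apart.

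After etoposide the RNA of these genes was higher in the B-lineage lines, higher by smaller folds for most of them in the myeloid lines, and in JURKAT none passed the test. In NALM6, 697 and RAMOS all 10 genes were called higher after etoposide. BCL3, BIRC3 and TNFAIP2 in NALM6 and BIRC3 in 697 passed the filter on low counts only through the treated libraries, so they had to differ, and the counts for these lines include them. Of the genes that also passed through the controls, 7 of 7 in NALM6 and 9 of 9 in 697 were called higher. In THP1 8 of 10 were higher, and in U937 6 were higher and 1 was lower. These calls used edgeR's quasi-likelihood test within each line and a threshold of 0.05 on its p, adjusted over all tested genes by Benjamini-Hochberg. The share of all tested genes called higher was 41.3% in NALM6, 39.4% in 697, 34.2% in RAMOS, 14% in THP1, 22.1% in U937 and 6.71% in JURKAT, and the share called lower in U937 was 22.1%.

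Where many genes of a line were called, the size of the change says more than the call. Called rises that reached 2-fold numbered 10 in NALM6, 10 in 697, 9 in RAMOS, 0 in JURKAT, 6 in THP1 and 3 in U937. Of the genes that also passed the filter through the controls, 7 of 7 in NALM6 and 9 of 9 in 697 reached it. Among all tested genes such a rise was called for 20.5% in NALM6, 22.9% in 697, 6.81% in RAMOS, 0.266% in JURKAT, 0.880% in THP1 and 1.89% in U937. Read library by library, every etoposide library lay above every control for 10 of the 10 genes in NALM6, 10 in 697, 9 in RAMOS, 2 in JURKAT, 9 in THP1 and 7 in U937. For NALM6 and 697 these counts include the genes that passed the filter only through the treated libraries, which had to be high there. The same held for 40.2% of all tested genes in NALM6, 42.4% in 697, 34% in RAMOS, 15.2% in JURKAT, 20.1% in THP1 and 31.9% in U937. The reverse order, every etoposide library below every control, held only for TNIP1 in THP1 and in U937, against 21.6% and 30.5% of all tested genes there. In the other lines that share was 40.2% in NALM6, 41.1% in 697, 34.7% in RAMOS and 14.4% in JURKAT. The median log2 fold change of the 10 genes was 3.90 in NALM6, 4.17 in 697, 2.62 in RAMOS, 1.36 in THP1 and 0.47 in U937. Without the genes that passed only through the treated libraries it was 3.27 in NALM6 and 3.98 in 697. It was 0.037 over the 9 genes tested in JURKAT. The median over all tested genes lay between −0.0022 and 0.047 in the 6 lines.

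**Figure D1:**
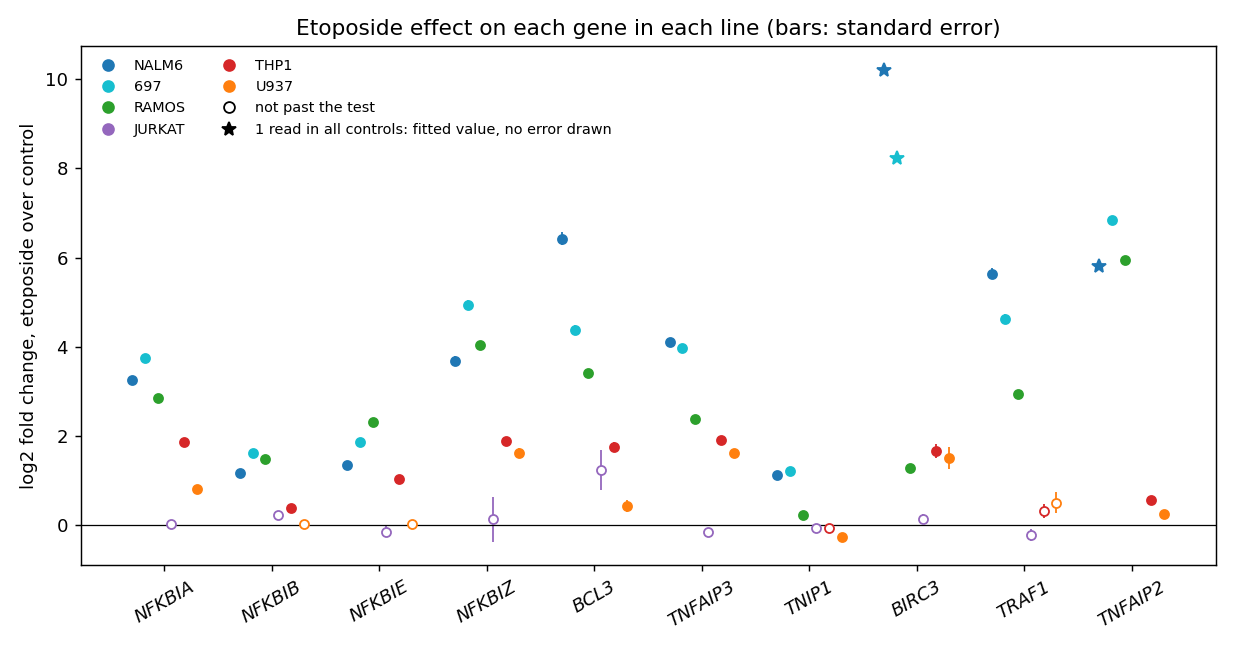
Log2 fold change of etoposide over control for each gene (horizontal axis) in each line (colour), with standard error bars from edgeR and open points for values not past the test; stars mark fitted values that rest on 1 read in all controls. The points of the B-lineage lines lie highest for most genes, at up to 6.84 among the values without a star, and those of JURKAT lie near 0 apart from BCL3 at 1.24, which was not past the test.

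The classical IκB proteins hold NF-κB in the cytoplasm. NFKBIA encodes IκBα, the form that is destroyed and remade fastest. In NALM6 its level was 50.1, 59.7 and 51.8 CPM in the control libraries and 534, 510.5 and 505 CPM after etoposide. In 697 it was 63.0, 60.9 and 61.5 CPM in controls and 830.1 and 809 CPM after etoposide. In RAMOS it was 81.1, 92.0 and 79.8 CPM and then 636, 579 and 619 CPM. Every treated library of these 3 lines lay above every control, by 9.62-fold in NALM6 (edgeR adjusted p = 2.69e-42), 13.4-fold in 697 (adjusted p = 1.47e-18) and 7.25-fold in RAMOS (adjusted p = 5.27e-45). The myeloid lines moved the same way over a smaller range. THP1 held 68.6, 69.7 and 71.2 CPM in controls and 252, 257 and 252 CPM after etoposide, a log2 change of 1.86 ± 0.045 (SE). U937 held 39.7 and 38.1 CPM in controls and 69.4, 70.2 and 67.3 CPM after etoposide, a rise of 1.76-fold (edgeR adjusted p = 5.21e-11).

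NFKBIB and NFKBIE encode IκBβ and IκBε, which are remade more slowly than IκBα. Both rose in NALM6, 697, RAMOS and THP1 and did not pass in U937 or JURKAT. RAMOS held 28.5, 35.1 and 32.9 CPM of NFKBIE in controls and 163, 166 and 161 CPM after etoposide, a log2 change of 2.32 ± 0.054, the largest of the 6 lines for this gene. Its other called rises were 3.62-fold in 697, 2.56-fold in NALM6 and 2.07-fold in THP1. In U937, whose untreated level of NFKBIE was the highest of the lines, the libraries stood at 107 and 103 CPM in controls and 111, 112 and 101 CPM after etoposide. Those ranges overlapped, and the 95% interval of the log2 change ran from −0.095 to 0.15.

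For NFKBIB the rise was 3.09-fold in 697, 2.81-fold in RAMOS, 2.26-fold in NALM6 and 1.32-fold in THP1. In THP1 the libraries stood at 21.6, 21.0 and 20.9 CPM in controls and 30.6, 26.4 and 26.4 CPM after etoposide, without overlap (edgeR adjusted p = 0.000275). In U937 its groups overlapped, with 49.7 and 48.5 CPM in controls and 52.4, 50.3 and 49.1 CPM after etoposide (95% interval of the log2 change −0.11 to 0.18). NFKBIB shares 40 exonic bases, 1.72% of its own in GENCODE v29, with SIRT2 on the other strand, and whether the counting used strand is not stated.

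NFKBIZ and BCL3 encode IκBζ and BCL3, relatives of IκB that sit in the nucleus and can switch on a subset of NF-κB genes instead of holding the factor back. Before treatment their mean levels were at most 5.62 CPM in the B-lineage lines, and both rose more than 10-fold there. In 697 NFKBIZ went from 2.94, 2.84 and 2.51 CPM to 83.8 and 83.1 CPM, 30.6-fold (edgeR adjusted p = 2.80e-16). In RAMOS it went from 4.72, 3.46 and 3.60 CPM to 60.9, 60.5 and 61.3 CPM, 16.4-fold. The rise was 12.9-fold in NALM6, 3.72-fold in THP1 and 3.07-fold in U937, with no overlap between groups in any of these 5 lines. U937 libraries held 6.49 and 8.10 CPM in controls and 20.4, 24.3 and 22.3 CPM after etoposide, which makes NFKBIZ one of 3 genes described here that rose at least 2-fold in that line.

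BCL3 rose in 5 of the 6 lines, by folds that ranged widely. In NALM6 it went from 1.58, 0.682 and 1.61 CPM to 99.7, 91.1 and 89.3 CPM, a log2 change of 6.43 ± 0.14. In 697 the libraries held 3.10, 3.54 and 3.41 CPM before and 71.7 and 64.6 CPM after, 20.6-fold, and RAMOS rose 10.6-fold to a mean of 60.5 ± 5.46 CPM (SD, n = 3). THP1 rose 3.37-fold, and U937 rose 1.36-fold, from 8.90 and 9.41 CPM to 14.2, 12.99 and 10.5 CPM (edgeR adjusted p = 0.00796). That U937 call was lost without U937 control replicate 1 (edgeR adjusted p = 0.05996).

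TNFAIP3 encodes A20, an enzyme that edits ubiquitin chains on the signalling complexes upstream of NF-κB and so ends the signal. TNIP1 encodes ABIN1, which binds A20 and helps it find its targets. TNFAIP3 reached its highest treated levels in the pre-B lines. NALM6 libraries held 101, 105 and 109 CPM before and 1813, 1766 and 1812 CPM after etoposide. In 697 the values were 76.9, 70.1 and 74.4 CPM and then 1140.2 and 1162 CPM. These rises were 17.3-fold and 15.8-fold (edgeR adjusted p = 2.78e-48 and 1.47e-18). RAMOS went from 26.5, 31.0 and 31.8 CPM to 159, 148 and 164 CPM, 5.19-fold. THP1 went from 49.0, 57.1 and 49.6 CPM to 200.01, 193 and 193 CPM, 3.76-fold. U937 went from 25.7 and 24.8 CPM to 77.6, 78.5 and 77.3 CPM, 3.07-fold. No treated library overlapped a control in these 5 lines. TNFAIP3 shares 95 exonic bases, 1.88% of its own in GENCODE v29, with an antisense gene that has no row in the count files.

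TNIP1 had the smallest folds of the 10 genes in the B-lineage lines. It rose 2.18-fold in NALM6 and 2.31-fold in 697. In RAMOS it rose only 1.17-fold (edgeR adjusted p = 9.14e-05), and its libraries overlapped, with 94.3, 110.0 and 102 CPM in controls and 131, 109 and 119 CPM after etoposide. In U937 TNIP1 fell, from 69.4 and 73.8 CPM to 61.7, 60.9 and 57.2 CPM, a log2 change of −0.26 ± 0.066 (edgeR adjusted p = 0.00167), and it was the 1 gene of the 10 called lower in any line. That call was lost without U937 control replicate 2 (edgeR adjusted p = 0.0796). In THP1 it did not pass, with 121, 120.1 and 121 CPM in controls and 115, 117 and 115 CPM after etoposide (95% interval of the log2 change −0.16 to 0.03). All 3 treated THP1 libraries lay below the controls, by little.

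BIRC3 encodes cIAP2, a ubiquitin ligase that guards against cell death at TNF receptors, and TRAF1 encodes an adaptor that binds cIAP proteins there. BIRC3 was nearly absent from the untreated pre-B lines and abundant in untreated RAMOS. NALM6 controls held 1 read of it in all 3 libraries together, and treated libraries stood at 28.0, 31.2 and 28.6 CPM. The ratio of counts was 1635 (95% counting interval 293 to 64641). In 697 the 3 controls also held 1 read together, against 8.31 and 7.16 CPM in the treated libraries, a ratio of 417 (95% counting interval 74.2 to 16530.4). RAMOS controls held 210.5, 217 and 226 CPM, and treated libraries 535, 528 and 529 CPM, a rise of 2.43-fold. So the untreated RAMOS level lay above the treated level of every other line. BIRC3 rose 3.17-fold in THP1, to a mean of 10.1 ± 0.965 CPM (SD, n = 3), and 2.85-fold in U937, to 4.32 ± 0.746 CPM (n = 3).

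TRAF1 rose in the B-lineage lines and did not pass in the others. NALM6 went from 1.21, 1.33 and 1.90 CPM to 71.9, 68.1 and 73.1 CPM, a log2 change of 5.63 ± 0.12. In 697 it went from 3.37, 3.61 and 3.26 CPM to 77.8 and 88.3 CPM, 24.7-fold. RAMOS started higher, at 32.7, 37.7 and 36.2 CPM, and reached 283, 262 and 285 CPM, 7.72-fold. The groups did not overlap in any of these lines. In THP1 the libraries held 5.18, 5.21 and 4.81 CPM in controls and 5.52, 7.71 and 5.81 CPM after etoposide (log2 change 0.32 ± 0.16, edgeR adjusted p = 0.136). In U937 they held 2.73 and 1.94 CPM and 3.89, 2.89 and 3.36 CPM (log2 change 0.51 ± 0.24, edgeR adjusted p = 0.0817). Every treated library lay above every control in both myeloid lines, but the differences did not pass the test over all genes.

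TNFAIP2 was named for its induction by TNF. It encodes a protein related to the exocyst that shapes cell protrusions. Before treatment it was high in both myeloid lines and low in the lymphoid lines, but the myeloid lines shared a run that held no lymphoid library, so lineage and run cannot be told apart. In 697 it went from 7.38, 5.27 and 7.12 CPM to 751 and 762 CPM, 114-fold, so that the treated 697 libraries lay above every myeloid library. RAMOS went from 1.45, 2.20 and 2.37 CPM to 136, 127 and 129 CPM, 61.3-fold. NALM6 reached only 1.53, 1.21 and 1.38 CPM, from 1 read in the 3 controls, a ratio of 76.6 (95% counting interval 13.3 to 3071). The treated libraries of 697 and NALM6 were thus far apart for TNFAIP2. THP1 rose 1.48-fold, from 136, 142 and 142 CPM to 197, 218 and 208 CPM, and U937 1.20-fold (edgeR adjusted p = 0.000223).

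**Figure D2:**
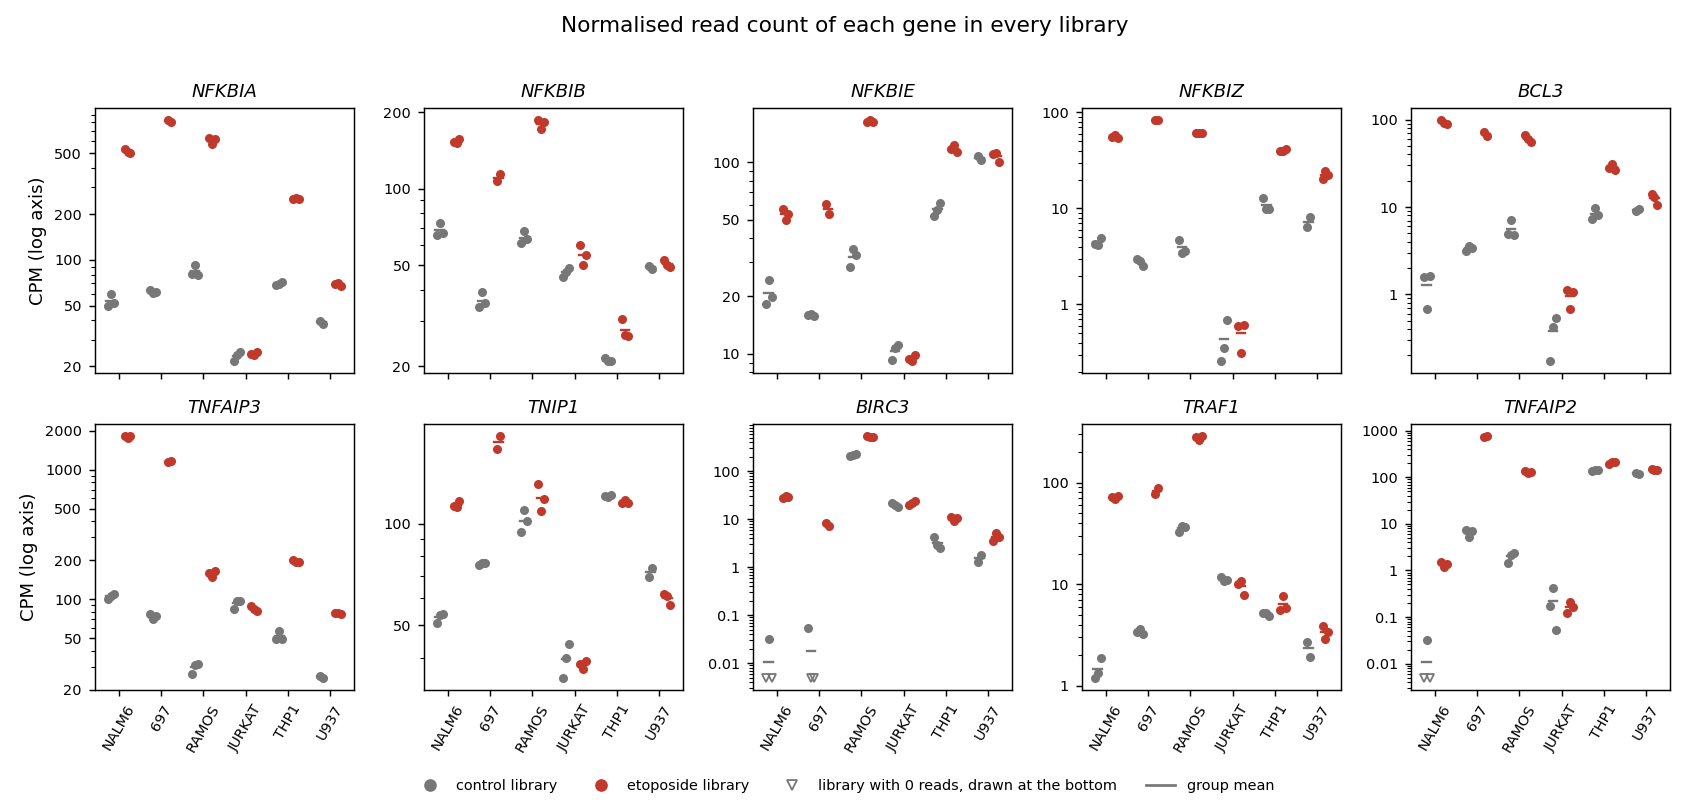
Normalised read count (CPM, log axis) of each gene in every library, by line; grey points are controls, red points etoposide libraries, short lines group means, and open triangles libraries with 0 reads. Red points lie above grey ones for most genes in NALM6, 697 and RAMOS, while in JURKAT both colours stand close together, as for NFKBIA at 21.6 to 24.9 CPM in controls and 23.8 to 24.7 CPM after etoposide.

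The untreated lines differed in which of these genes they held. Mean levels of NFKBIA ran from 84.3 ± 6.67 CPM (SD, n = 3) in RAMOS through THP1, 697, NALM6 and U937 to 23.4 ± 1.64 CPM (n = 3) in JURKAT, and no neighbours in that order overlapped. JURKAT also had the lowest untreated level of NFKBIE, NFKBIZ, TNIP1 and BCL3, but the second highest of TNFAIP3, at 92.7 ± 7.02 CPM against 105 ± 4.19 CPM in NALM6 and 25.2 ± 0.653 CPM in U937, the lowest. NFKBIE ran from 105 ± 3.19 CPM (n = 2) in U937 and 56.6 ± 4.23 CPM in THP1 down through RAMOS, NALM6 and 697 to 10.4 ± 0.932 CPM in JURKAT. NFKBIB varied less, from 68.8 ± 4.11 CPM in NALM6 to 21.2 ± 0.380 CPM in THP1, and NALM6 overlapped RAMOS while U937 overlapped JURKAT. NFKBIZ was highest in THP1, at 10.9 ± 1.64 CPM, then U937, and NALM6 overlapped RAMOS below them. BCL3 was highest in U937, at 9.15 ± 0.361 CPM, where it overlapped THP1.

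BIRC3 and TRAF1 shared an order at the top, RAMOS and then JURKAT and THP1. For BIRC3 these means were 218 ± 7.70, 19.9 ± 2.30 and 3.21 ± 0.904 CPM (SD, n = 3 each), and 697 and NALM6 overlapped at the bottom. For TRAF1 they were 35.5 ± 2.57, 11.2 ± 0.629 and 5.07 ± 0.219 CPM, with NALM6 lowest at 1.48 ± 0.368 CPM. TNIP1 ran from 121 ± 0.534 CPM in THP1 to 39.6 ± 4.45 CPM in JURKAT. TNFAIP2 stood at 139.9 ± 3.32 CPM in THP1 and 122 ± 2.94 CPM (n = 2) in U937, against at most 6.59 ± 1.15 CPM in a lymphoid line. These are levels of 1 gene across lines, without a test. NALM6 and 697 controls shared a run, as did THP1 and U937, and otherwise the controls of different lines lay in different runs, so line and run cannot be told apart there.

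In JURKAT none of the 10 genes passed the test. Of all genes tested in the line, 6.71% were called higher and 6.27% lower. With 9 genes tested, the absence of a call lies near those shares and is no result about these genes. TNFAIP2 had too few reads to test there, 9 in all controls and 10 in all treated libraries. At an unadjusted p under 0.05, 2 of the 9 tested genes were higher and 1 was lower in edgeR. The share of all genes at that unadjusted threshold is not given. DESeq2 was read only at an adjusted p under 0.05, where it called none. NFKBIB came nearest, with 44.9, 46.9 and 48.9 CPM in controls and 60.1, 50.1 and 54.9 CPM after etoposide, a log2 change of 0.22 ± 0.076 (edgeR adjusted p = 0.0585). Its groups did not overlap, and it passed without JURKAT etoposide replicate 2 (edgeR adjusted p = 0.0279). BCL3 also lay without overlap, at 0.171, 0.424 and 0.529 CPM before and 1.12, 0.673 and 1.05 CPM after etoposide, with only 18 and 60 reads in all.

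For most genes the JURKAT intervals were narrow and included 0. The 95% interval of the log2 change was −0.15 to 0.22 for NFKBIA, with 21.6, 23.6 and 24.9 CPM in controls and 23.9, 23.8 and 24.7 CPM after etoposide. For TNFAIP3 it was −0.27 to −0.0063, with 84.6, 96.6 and 96.9 CPM before and 88.0, 84.1 and 81.4 CPM after, so the interval lay just below 0 while the groups overlapped (edgeR adjusted p = 0.17). It was −0.082 to 0.37 for BIRC3, −0.50 to 0.06 for TRAF1, −0.40 to 0.11 for NFKBIE and −0.23 to 0.11 for TNIP1. For NFKBIB and BCL3 it lay above 0, at 0.065 to 0.38 and 0.32 to 2.17, though neither passed after adjustment. That of BCL3 rests on few reads and also covers changes of more than 2-fold. For NFKBIZ, with 21 reads in controls and 32 in treated libraries, the interval of −0.91 to 1.18 covers changes of more than 2-fold in the upward direction.

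The differences between lines were tested as contrasts of the etoposide effect in 1 fit of all 34 libraries. Against JURKAT, the effect in RAMOS was larger for all 10 genes, where 16.9% of all genes had a larger effect in RAMOS and 18.9% in JURKAT. The difference was 3.16 ± 0.14 (SE) on the log2 scale for TRAF1 and 2.82 ± 0.092 for NFKBIA (edgeR adjusted p = 6.60e-37 for the last). It was 3.89 ± 0.50 for NFKBIZ and 6.25 ± 0.80 for TNFAIP2, which rest on few JURKAT reads. TNFAIP2 had too few reads for the test within JURKAT, 9 in controls and 10 in treated libraries, and entered this fit through other lines. It was smallest for TNIP1, at 0.28 ± 0.095, a call that was lost without JURKAT control replicate 3 or RAMOS etoposide replicate 1 (edgeR adjusted p = 0.0582 and 0.0926). The call for BCL3 was lost without JURKAT control replicate 3 (edgeR adjusted p = 0.0682).

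Against the mean of the myeloid lines, RAMOS had the larger effect for 9 of the 10 genes, where 15.5% of all genes did and 19.2% had the smaller effect. The difference was 5.51 ± 0.11 for TNFAIP2, 2.54 ± 0.15 for TRAF1, 2.29 ± 0.16 for BCL3 and 2.26 ± 0.15 for NFKBIZ. The ninth and smallest was TNIP1 at 0.38 ± 0.078. BIRC3 was the exception and pointed the other way, at −0.32 ± 0.14, which did not pass (edgeR adjusted p = 0.0694). It passed as smaller in RAMOS without THP1 control replicate 1, U937 control replicate 2 or U937 etoposide replicate 1 (edgeR adjusted p = 0.0161, 0.0438 and 0.0297).

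Between the myeloid lines, THP1 had the larger effect for 6 genes, where 5.96% of all genes did and 7.06% had the larger effect in U937. The difference was 1.31 ± 0.19 for BCL3, 1.04 ± 0.086 for NFKBIA and 1.02 ± 0.10 for NFKBIE (edgeR adjusted p = 1.54e-11 for the last). For NFKBIB, TNFAIP2 and TNFAIP3 it lay between 0.29 and 0.36. Without U937 control replicate 1 the count was 3, and those 3 were not past the test (edgeR adjusted p = 0.087 for NFKBIB, 0.0923 for TNFAIP2 and 0.165 for TNFAIP3). The call for TNFAIP3 was also lost without U937 control replicate 2 or without THP1 control replicate 1, THP1 control replicate 3 or THP1 etoposide replicate 1, with edgeR adjusted p from 0.0503 to 0.0664, and that for NFKBIB without THP1 etoposide replicate 1 (edgeR adjusted p = 0.101). NFKBIZ, TNIP1, BIRC3 and TRAF1 did not pass, and the 95% interval of the difference was −0.045 to 0.58 for NFKBIZ and −0.37 to 0.65 for BIRC3.

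**Figure D3:**
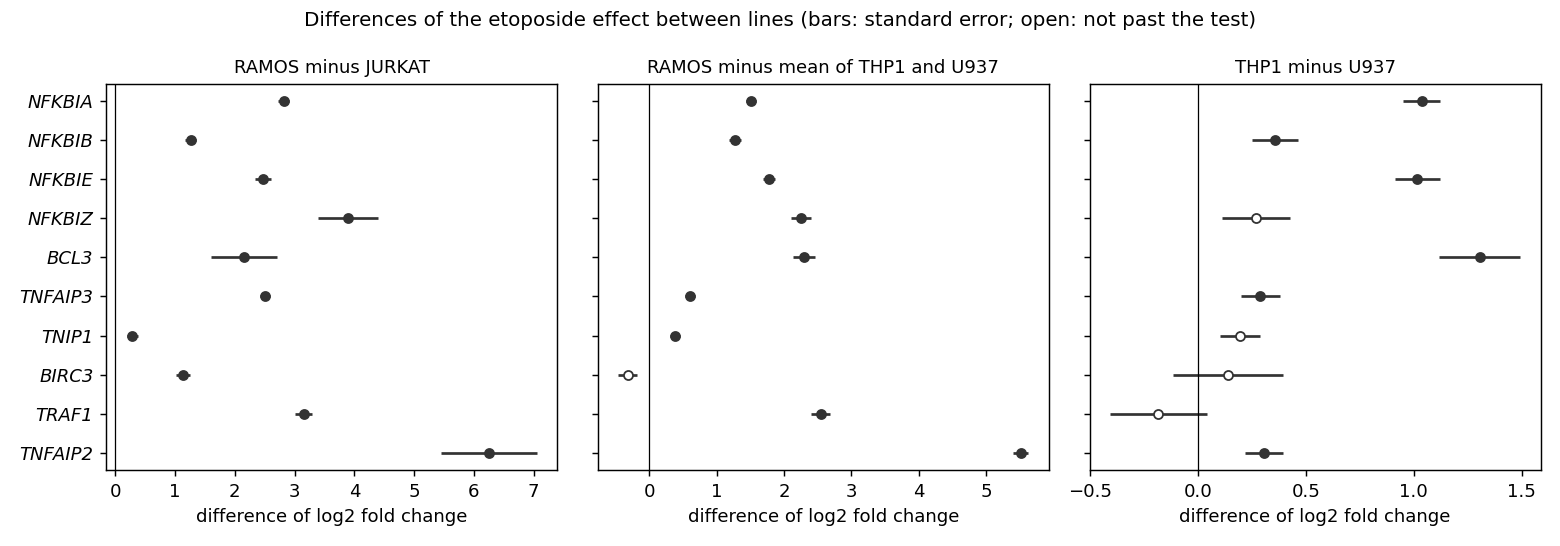
Difference of the log2 fold change between lines (horizontal axis) for each gene, with standard error bars, for 3 contrasts; open points did not pass the test. All 10 points lie to the right of 0 for RAMOS against JURKAT, where that of TNFAIP2 rests on 9 and 10 JURKAT reads, and BIRC3 alone lies to the left against the myeloid mean, at −0.32.

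The pre-B lines differed in both directions. Their controls shared 1 run and their treated libraries shared another. The effect was larger in 697 for NFKBIZ, at −1.26 ± 0.19 for NALM6 minus 697, and for NFKBIE, NFKBIA and NFKBIB, between −0.51 and −0.46. It was larger in NALM6 for BCL3, at 2.04 ± 0.28, and for TRAF1, at 1.00 ± 0.22 (edgeR adjusted p = 0.000261). Among all genes 15.1% had a larger effect in NALM6 and 16.1% in 697. TNFAIP3 did not pass, with a 95% interval of −0.028 to 0.30. BIRC3 and TNFAIP2 rested on 1 read in a control group, and their differences had standard errors of 2.20 and 2.57.

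The genes of the NF-κB subunits, on which the inhibitors act, were a list of 5. All 5 were higher in NALM6, 697, RAMOS and THP1, and 3 in JURKAT and 3 in U937, with none lower. Among all tested genes, 41.3% were called higher in NALM6, 39.4% in 697 and 34.2% in RAMOS. That share was 6.71% in JURKAT, 14% in THP1 and 22.1% in U937. Called lower were 40.3% in NALM6, 36.9% in 697, 35.5% in RAMOS, 6.27% in JURKAT, 17% in THP1 and 22.1% in U937. The median log2 fold change was 2.06 in NALM6, 2.83 in 697, 1.20 in RAMOS, 0.37 in JURKAT, 0.32 in THP1 and 0.50 in U937. NFKB2, which encodes the p100 precursor that also acts as an inhibitor, rose 28.5-fold in 697, 25.7-fold in NALM6 and 9.11-fold in RAMOS. Its rise was 2.84-fold in THP1, 1.69-fold in U937 and 1.29-fold in JURKAT. RELB, its partner subunit, rose 79.5-fold in NALM6, 40.6-fold in 697, 4.12-fold in RAMOS, 2.53-fold in THP1 and 1.41-fold in U937. In JURKAT RELB rose 2.00-fold, from 2.86 ± 0.650 to 5.74 ± 0.458 CPM (SD, n = 3, edgeR adjusted p = 0.00099). REL, which encodes c-Rel, rose 7.11-fold in 697, 4.16-fold in NALM6, 1.52-fold in U937, 1.40-fold in JURKAT, 1.36-fold in RAMOS and 1.25-fold in THP1. So 3 subunit genes were called higher in JURKAT, where none of the 10 inhibitor and feedback genes passed. The difference between the lists was not tested.

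Upstream of the inhibitors, 23 genes of the IκB kinase complex and its signalling partners were counted. They were 10 higher and 4 lower in NALM6, 9 higher and 5 lower in 697, 12 higher and 5 lower in RAMOS, 3 higher and 1 lower in JURKAT, 9 higher and 3 lower in THP1 and 8 higher and 5 lower in U937, all 23 being tested in each line. The share of all tested genes called higher was 41.3% in NALM6, 39.4% in 697, 34.2% in RAMOS, 6.71% in JURKAT, 14% in THP1 and 22.1% in U937. The share called lower was 40.3% in NALM6, 36.9% in 697, 35.5% in RAMOS, 6.27% in JURKAT, 17% in THP1 and 22.1% in U937. The higher counts in NALM6 and 697 and the lower counts in JURKAT, THP1 and U937 lie near those shares. Such counts are no result about the list. The median log2 fold change lay between 0.039 and 0.21. PIDD, whose protein links DNA damage to the kinase complex and which is itself a p53 target, rose 7.27-fold in NALM6 and 5.68-fold in 697. Its rise was 2.08-fold in RAMOS, 1.63-fold in JURKAT, 1.39-fold in U937 and 1.32-fold in THP1. MAP3K14, the kinase of the alternative NF-κB pathway, rose 4.09-fold in NALM6, 2.04-fold in 697 and 1.59-fold in JURKAT. It also rose 1.53-fold in THP1 and 1.37-fold in U937 and did not pass in RAMOS. TRAF5, an adaptor gene, fell in RAMOS from 65.0 ± 3.26 to 9.27 ± 0.439 CPM. The TNF receptor gene TNFRSF1A fell in THP1, by 0.53 on the log2 scale, and in U937, by 0.72. It was also lower in JURKAT, and in NALM6 it rose 2.34-fold.

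A further list held 19 other inhibitors and brakes of the pathway. There were 8 higher and 6 lower of 17 tested in NALM6, 6 higher and 7 lower of 18 tested in 697, 10 higher and 6 lower of 18 tested in RAMOS, 1 higher and 3 lower of 17 tested in JURKAT, 6 higher and 4 lower of 18 tested in THP1 and 3 higher and 3 lower of 18 tested in U937. Read against the shares of all tested genes just given, the counts in NALM6, 697 and U937 lie near the background. So do the higher count in JURKAT and the lower counts in RAMOS and THP1. Those counts are no result about the list. NFKBID, another nuclear IκB relative, rose 38.7-fold in NALM6, from 2.37 ± 0.842 to 93.1 ± 1.90 CPM, and 29.8-fold in 697. It also rose 8.09-fold in RAMOS and 1.26-fold in THP1. CYLD, which encodes a deubiquitinase that ends NF-κB signalling, rose 11.9-fold in 697, 6.33-fold in RAMOS and 4.13-fold in NALM6. Its rise was 1.44-fold in U937 and 1.25-fold in THP1. TRAF4, an adaptor gene, rose 4.14-fold in NALM6, 6.92-fold in RAMOS, 1.29-fold in JURKAT, 1.66-fold in THP1 and 1.59-fold in U937. ZC3H12A, whose protein degrades inflammatory mRNAs, rose 1.59-fold in THP1.

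Of 25 other known NF-κB targets, between 11 and 16 had enough reads to test in a line. There were 10 higher and 2 lower of 13 tested in NALM6, 12 higher and 2 lower of 15 tested in 697, 13 higher and 0 lower of 15 tested in RAMOS, 4 higher and 2 lower of 11 tested in JURKAT, 11 higher and 0 lower of 16 tested in THP1 and 12 higher and 2 lower of 14 tested in U937. Of all tested genes 41.3% were called higher in NALM6, 39.4% in 697, 34.2% in RAMOS, 6.71% in JURKAT, 14% in THP1 and 22.1% in U937. Called lower were 40.3%, 36.9%, 35.5%, 6.27%, 17% and 22.1% in the same order. Genes that passed the filter through the treated group alone had to be higher, so these counts do not describe the whole list. The median log2 fold change of those tested was 1.64 in NALM6, 2.30 in 697 and 1.78 in RAMOS. It was 0.12 in JURKAT, 0.62 in THP1 and 0.49 in U937. CD40, a receptor gene of B cells, rose in RAMOS from 26.5 ± 2.19 to 565 ± 16.3 CPM. From near 0 it rose to 32.5 ± 0.599 CPM in NALM6 and 98.0 ± 0.239 CPM in 697, and it rose 1.35-fold in THP1. CD83, an activation marker gene, rose 15.5-fold in RAMOS, 11.7-fold in NALM6 and 4.92-fold in 697. Its rise was 2.74-fold in THP1, 1.71-fold in U937 and 1.45-fold in JURKAT. The chemokine gene CXCL2 rose 4.64-fold in U937 and 3.33-fold in THP1. IL8 rose more there, 11.1-fold in U937 and 7.44-fold in THP1. In 697 IL8 rose from 0 reads in controls, and in RAMOS it did not pass. ICAM1 rose 22.9-fold in NALM6, 139-fold in 697, 7.80-fold in RAMOS, 2.51-fold in THP1 and 1.37-fold in U937, and did not pass in JURKAT. BCL2L1, which encodes the survival protein BCL-XL, fell in JURKAT from 149 ± 2.45 to 115 ± 5.10 CPM. BCL2L1 was also lower in 697 and U937, while in RAMOS it rose 2.93-fold, from 261 ± 16.8 to 768 ± 6.21 CPM.

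**Figure D4:**
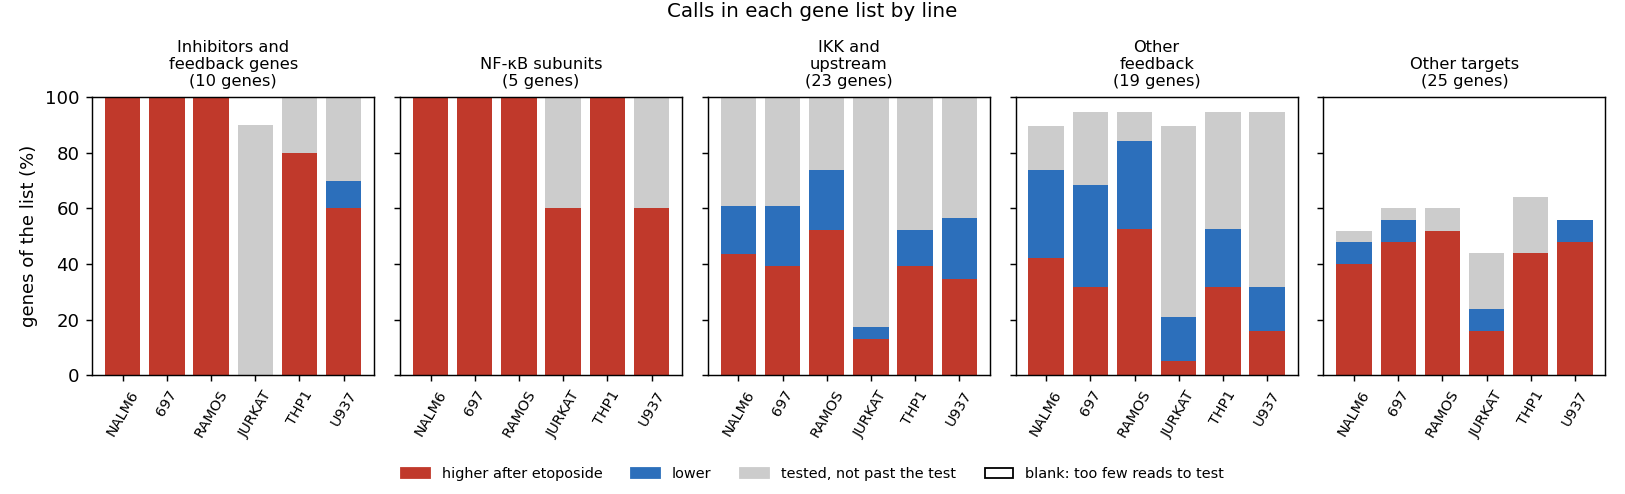
Share of each gene list (percent of its genes, vertical axis) called higher (red), lower (blue) or not past the test (grey) after etoposide, by line, with blank space for genes with too few reads to test. The 10 inhibitors and feedback genes are wholly red in NALM6, 697 and RAMOS and have no red in JURKAT, where 3 of the 5 subunit genes are red.

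Among 12939 other genes, the one whose pattern was most like that of NFKBIA was NFKB2, with a Pearson correlation of 0.985 for log2 CPM centred within each line over the 34 libraries. EIF1 (0.979) and HEXIM1 (0.977) followed. For TNFAIP3 they were NXF1 (0.989), HEXIM1 (0.988) and ATF3 (0.981). For BIRC3 they were CCDC130 (0.982), SECISBP2 (0.981) and PRIC285 (0.980). These values share libraries, runs and treatment. The authors' deposited tables gave the same call as edgeR for all 57 pairs of gene and line that had an adjusted p in both. For TNFAIP3 in NALM6 the authors' deposited table gives a log2 fold change of 3.38 with a standard error of 0.27, where the edgeR value was 4.12 ± 0.047.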

How the data were processed

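RNA-seq read counts per gene symbol were deposited for each of 34 libraries, 17 control and 17 etoposide, and the file names give htseq-count as the counter. HISAT, HTSeq and DESeq2 are named in the submitters' processing notes together with the genome build hg19, without versions. The authors also deposited a DESeq2 comparison per line. Per the file headers it holds a mean signal (mean normalised count), log2 fold change with its standard error, Wald score, p-value and adjusted p-value. The headers do not state which libraries entered each comparison. Total counts were 8.18 to 37.1 M per library.

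From the counts, genes were filtered within each line with filterByExpr (minimum count 10), scaled by TMM and compared in edgeR 4.0.16 (R 4.3.3) by its two-sided quasi-likelihood test with robust dispersions, with Benjamini-Hochberg adjustment over all genes tested. Differences between lines were contrasts in 1 fit of the 34 libraries. Printed CPM were scaled by TMM over all 34 libraries, and folds came from the fit of the line. Where a control group held 1 read, the ratio of counts is given with an exact 95% interval, which covers counting error only, since reads carry no molecular identifiers. Alternatives were DESeq2 1.42.0, its size factors, total count scaling, no filter, 1 fit of all libraries for the effects within lines, a replicate block and leaving out each library. The fit was tested on simulated counts.

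Replicate numbers did not pair libraries, since 1 of 16 same-number correlations of deviations was above 0.1. In JURKAT 2 pairs of unlike number stood higher, control 2 with etoposide 3 at 0.346 and control 3 with etoposide 2 at 0.269. Whether libraries were paired under other numbers was not tested. The 2 etoposide libraries of 697 are numbered differently in the titles, which were used, and in the file names, and both 697 correlations were under 0.1 by either numbering. No replicates of a group agreed within sampling noise. The genes and lists were chosen with earlier results of these data known. All 10 genes are described in every line, and from the other lists the genes named were among up to 2 per list and line with the smallest adjusted p, with values in further lines. Genes most like NFKBIA, TNFAIP3 and BIRC3 are the 3 with the highest Pearson correlation among genes with a mean log2 CPM of at least 1. Promoter sequences are RefSeq's on GRCh38.p14, a later build than that of the counts.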

Additional observations from a re-analysis of the deposited data

Results flagged for a closer look

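The size of the etoposide effect differed between lines for these genes in the contrasts of the fit of all 34 libraries (edgeR, adjusted p under 0.05), and each difference is given on the log2 scale with its standard error. Groups of 2 or 3 libraries were not searched for libraries that stand apart. NFKBIA, the IκBα gene, differed by 2.82 ± 0.092 for RAMOS minus JURKAT, 1.51 ± 0.07 for RAMOS minus the myeloid mean, 1.04 ± 0.086 for THP1 minus U937 and −0.48 ± 0.083 for NALM6 minus 697. NFKBIB, the IκBβ gene, differed by 1.26 ± 0.096 for RAMOS minus JURKAT, 1.27 ± 0.084 for RAMOS minus the myeloid mean, 0.36 ± 0.11 for THP1 minus U937 and −0.46 ± 0.1 for NALM6 minus 697. NFKBIE, the IκBε gene, differed by 2.47 ± 0.13 for RAMOS minus JURKAT, 1.78 ± 0.091 for RAMOS minus the myeloid mean, 1.02 ± 0.10 for THP1 minus U937 and −0.51 ± 0.12 for NALM6 minus 697. NFKBIZ, the IκBζ gene, differed by 3.89 ± 0.50 for RAMOS minus JURKAT, 2.26 ± 0.15 for RAMOS minus the myeloid mean and −1.26 ± 0.19 for NALM6 minus 697. BCL3, the other nuclear IκB relative, differed by 2.15 ± 0.56 for RAMOS minus JURKAT, 2.29 ± 0.16 for RAMOS minus the myeloid mean, 1.31 ± 0.19 for THP1 minus U937 and 2.04 ± 0.28 for NALM6 minus 697. TNFAIP3, the A20 gene, differed by 2.51 ± 0.086 for RAMOS minus JURKAT, 0.61 ± 0.078 for RAMOS minus the myeloid mean and 0.29 ± 0.091 for THP1 minus U937. TNIP1, the ABIN1 gene, differed by 0.28 ± 0.095 for RAMOS minus JURKAT and 0.38 ± 0.078 for RAMOS minus the myeloid mean. BIRC3, the cIAP2 gene, differed by 1.13 ± 0.12 for RAMOS minus JURKAT. TRAF1, the adaptor gene, differed by 3.16 ± 0.14 for RAMOS minus JURKAT, 2.54 ± 0.15 for RAMOS minus the myeloid mean and 1.00 ± 0.22 for NALM6 minus 697. TNFAIP2, the exocyst-related gene, differed by 6.25 ± 0.80 for RAMOS minus JURKAT, 5.51 ± 0.11 for RAMOS minus the myeloid mean and 0.31 ± 0.088 for THP1 minus U937.

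For BCL3, NFKBIZ and TNFAIP2 the JURKAT side of the contrast rests on few reads, 18, 21 and 9 in all controls of that line.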

How the results depend on the processing

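Of 1416 gene values recomputed, 1377 kept direction and call, 16 lost and 12 gained a call and 11 changed sign, all 11 on leaving out 1 library from a value that had not passed. Without a filter or with DESeq2 the median of all genes rose by 0.218 and 0.265 in NALM6 and by 0.246 and 0.284 in 697, and under total count scaling by 0.147 and 0.0957. In JURKAT 1 gene of the 10, NFKBIB, was called higher in 1 fit of all 34 libraries, without the filter and under total count scaling (0 to 1 on leaving out a library). Total count scaling also gave 1 gene, BIRC3, with a smaller effect in RAMOS than in the myeloid mean (0 to 1 on leaving out a library). It also gave a call for TNFAIP3 between the pre-B lines. TRAF1 in U937 was called under total count scaling and in 1 fit of all 34 libraries (edgeR adjusted p = 0.0476 and 0.0267). DESeq2 called TNIP1 for THP1 minus U937 (DESeq2 adjusted p = 0.0498). Under the replicate block, whose numbers do not pair the libraries, genes called between THP1 and U937 numbered 1036, not 2215 (1181 to 2482 on leaving out a library), and 3 of the 10 genes, not 6 (3 to 6), while no call within a line changed. A block with the 697 numbers of the file names, chosen after seeing the data, gave 9951 genes called in 697, not 10257, and changed no call of the 10 genes there or between the pre-B lines. Genes called in JURKAT numbered 1806, and 1095 to 1582 on leaving out a library. In U937 0 to 1 of the 10 genes were lower. The cause of these shifts was not tested.

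On leaving out each library, the log2 change ranged from −0.0054 to 0.075 for NFKBIA, −0.075 to 0.70 for NFKBIZ and −0.13 to 0.0069 for TNIP1 in JURKAT, and from −0.0020 to 0.080 for NFKBIE in U937. For THP1 minus U937 the difference ranged from −0.11 to 0.39 for BIRC3 and −0.47 to 0.019 for TRAF1. For NALM6 minus 697 it ranged from −0.024 to 3.86 for BIRC3 and −1.32 to 0.90 for TNFAIP2. Groups of 2 or 3 libraries and few reads in JURKAT for BCL3, NFKBIZ and TNFAIP2 limit these values.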
